A study of Rattus norvegicus with 64 samples.

Results

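The genes described here are 40 listed genes of microglia and of the macrophages that line the borders of the brain, followed through the postnatal development of the rat entorhinal cortex. They were found by gene symbol in the count tables, which held 17260 genes. Of the 40, 39 were counted and Dock2 was not analysed here. All 39 passed the filter on low counts, as did 12521 of the 17260 genes. Of these 39, Mrc1, Cd163 and F13a1 served as genes of border macrophages and were set against the microglial ones.

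The tissue came from Long Evans rats, an outbred strain, and the labels give no treatment or altered allele for any group. Layer II (LII) and the layers below it (LDeep) were cut by hand from slices of the medial (MEC) and lateral (LEC) entorhinal cortex at postnatal days 2, 9, 23 and 45 (P2, P9, P23 and P45), and total RNA was depleted of ribosomal RNA and sequenced. Each combination of region, layer and age was sequenced in 5 libraries (P2), 4 (P9), 3 (P23) or 4 (P45), which gave 64 libraries, 32 in each layer and 32 in each region. No cells were sorted, so every library mixed neurons, glia, vessels and whatever meninges came with the slice.

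Microglia are the resident macrophages of the brain. They arise from yolk sac progenitors, enter the brain before birth, multiply in the first postnatal weeks, and need signals through the receptor Csf1r to survive. They clear dying cells and take part in removing synapses, for which the complement proteins C1q and C3 serve as tags. Mature microglia are known for a homeostatic set of surface genes, among them P2ry12, Tmem119 and Cx3cr1. Macrophages of the meninges and of the spaces around vessels share many genes with microglia but carry more of the scavenger receptors Mrc1 and Cd163 and, in part, the clotting factor subunit F13a1.

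The transcription factor PU.1, made from the member Spi1, drives gene expression in all of these cells and binds DNA through a core of the letters GGAAGT. RefSeq promoters (assembly GRCr8) were found for 27 of the 39 members. GGAAGT occurred on either strand within 250 bases before the start of 12 of the 27 (44.4%), against 19.2% of 33469 promoters. For each member the first promoter listed was used, while every listed promoter was counted among the 33469. The longer form GAGGAAGT, which contains GGAAGT and is counted with it, occurred in 2 of the 27 (7.41%), against 2.04% of all promoters. Members named often below, among them Cd163, Olfml3, Inpp5d, Csf1r, C3 and Cx3cr1, had no GGAAGT in their 250 bases. The promoters of 5 of the 12 members with GGAAGT are shown as examples. Each is the 110 bases directly before the start, written 5′ to 3′ along the gene's own strand, with GGAAGT or its reverse complement ACTTCC in capitals. The intervals were chr5:154419934-154420043 for C1qa and chr5:154407828-154407937 for C1qb, both on the minus strand, chr2:185775286-185775395 on the plus strand for Ctss, chr10:54882442-54882551 on the minus strand for Cd68, and chr17:28021087-28021196 on the plus strand for F13a1. A match of letters is a description of these windows and not a measured site.
C1qa: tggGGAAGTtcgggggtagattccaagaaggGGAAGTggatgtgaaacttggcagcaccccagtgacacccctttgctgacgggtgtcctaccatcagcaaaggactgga
C1qb: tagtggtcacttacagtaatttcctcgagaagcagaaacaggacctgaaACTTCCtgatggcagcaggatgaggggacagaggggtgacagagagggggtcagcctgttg
Ctss: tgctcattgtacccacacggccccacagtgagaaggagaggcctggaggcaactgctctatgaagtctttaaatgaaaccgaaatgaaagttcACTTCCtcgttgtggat
Cd68: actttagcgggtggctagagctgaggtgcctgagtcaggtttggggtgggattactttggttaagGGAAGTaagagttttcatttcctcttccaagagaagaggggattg
F13a1: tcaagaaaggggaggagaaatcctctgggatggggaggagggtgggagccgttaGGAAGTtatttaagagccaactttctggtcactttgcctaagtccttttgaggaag

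The libraries held 3894334 to 11439143 counts, with a median of 7569157.5. Markers of blood leukocytes were close to 0: none of the 13 in the tables passed the filter, and their summed level was 0.136 to 3.43 CPM, the count relative to the size of the library. In all, 4 libraries went against their layer label in the mean level of 16 meningeal fibroblast markers. The MEC LII P2 replicates 1 and 3 had mean log2 CPM values of 0.33 and 0.47 where the other 3 of their group had 4.09 to 5.13. The MEC LDeep P2 replicate 1 had 4.87 where the others had 0.08 to 0.22, and the MEC LDeep P9 replicate 3 had 3.57 where the others had -0.03 to 0.71. The meningeal markers were not all that differed. Reln was at 761 CPM in the MEC LDeep P2 replicate 1, against 194.5 to 300.7 in the others. In the MEC LII P2 replicates 1 and 3 it was at 675.3 and 999.6, against 1009.1 to 1481.8. Choroid plexus markers had a mean log2 CPM of 1.85 in the MEC LII P2 replicate 1, against -1.29 to -1.03 in its group. Results that these 4 libraries move are given with and without them. They were picked after seeing the data.

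Levels are given on the log2 CPM scale, after TMM scaling and with 2 as the prior count, which sets a gene with no counts to about -1.91. Differences were tested with the quasi-likelihood test of edgeR on 16 group means, p-values were adjusted by Benjamini-Hochberg over all 12521 genes, and a gene was called at an adjusted p below 0.05. Over all libraries the 39 members together took 0.0226 to 0.137% of the counts. Their share had a median of 0.0375% at P2 and of 0.104% at P23. In bulk tissue, fewer cells of a type and less RNA per cell cannot be told apart, and this holds for every level below.

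Per kilobase of exon, the order of the members changed with age. At P2 the highest mean level was that of Lgmn, a lysosomal protease, at 43.7 ± 12.3 RPKM (SD over 20 libraries), followed by the lysosomal protease Ctss at 18.7 ± 6.44 RPKM. Aif1, which encodes the microglia marker Iba1, at 17.8 ± 3.95 RPKM and C1qa at 17.6 ± 6.63 RPKM lay within their spread of Ctss. At P45 Ctss led with 211 ± 39.9 RPKM over 16 libraries, and C1qa with 59.6 ± 14.1 RPKM and Lgmn with 58.6 ± 6.53 RPKM stood next, not separated from each other beyond their spread. Tmem119 moved from rank 32 to rank 11 of the 39, Selplg from rank 37 to rank 13, and Cd68 from rank 16 to rank 32.

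The study asked how gene expression changes as the entorhinal cortex matures, and 34 of the 39 members were higher at the older ages (P23 and P45) than at the younger ages (P2 and P9). Cd68 was the 1 member called lower. Of all genes tested, 41% were higher and 40.6% were lower, so calls were common on both sides while the members' calls lay almost all on one. The median log2 fold change of the members was 1.06, against 0.01 over all genes. Itgam, Olfml3, Cd14 and Mrc1 were not called, at log2 fold changes of 0.14, -0.15, -0.3 and 0.46. In 6 members (Tmem119, C1qa, Csf1r, Ctss, Selplg and Plek) each of the 28 older libraries was above each of the 36 younger ones, an arrangement that 3.6% of all genes showed, and no member showed the reverse, which 3.82% of all genes did.

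Among the homeostatic members the rise was largest in Selplg, which encodes the selectin ligand PSGL-1. The lowest, median and highest log2 CPM of Selplg were -1.91, -1.08 and 0.22 in the 20 libraries at P2, -1.32, -0.16 and 0.81 in the 16 at P9, 3.58, 3.93 and 4.38 in the 12 at P23 and 3.34, 4.0 and 4.92 in the 16 at P45. All libraries at P23 and P45 were above all at P2 and P9, and P2 and P9 overlapped. The log2 fold change between older and younger ages was 5.36 ± 0.15 (SE, adjusted p = 3.7e-36). The younger libraries held few reads of the gene, 0 to 7 counts at P2 and 1 to 15 at P9, so this fold rests on small counts.

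Tmem119, a microglial membrane protein, had -0.88, 0.62 and 2.28 for P2, 0.86, 1.83 and 2.88 for P9, 4.75, 5.12 and 5.44 for P23 and 4.31, 4.91 and 5.48 for P45, again with no overlap between younger and older ages. Its log2 fold change was 3.73 ± 0.09 (SE, adjusted p = 4.5e-39). Selplg (chr12:48577905-48579196) and Tmem119 (chr12:48598647-48605704), both on the plus strand of rn6, lie close to each other on chromosome 12. The other homeostatic receptors rose less. Cx3cr1, the receptor of the neuronal chemokine Cx3cl1, went from 2.67, 3.33 and 3.99 for P2 through 3.1, 4.17 and 4.9 for P9 to 4.79, 5.14 and 5.29 for P23 and 4.76, 5.03 and 5.24 for P45, a log2 fold change of 1.33 ± 0.07 (SE, adjusted p = 1.8e-25). P2ry12, the ADP receptor that guides microglial processes, went from 2.22, 3.04 and 3.9 for P2 through 3.22, 4.39 and 5.25 for P9 to 4.57, 4.98 and 5.39 for P23 and 4.6, 4.88 and 5.33 for P45, a log2 fold change of 1.26 ± 0.1 (SE, adjusted p = 8.6e-18). In both, the libraries at P9 lay between those at P2 and at P23 and overlapped with both. The related receptor P2ry13 had medians of 0.76, 1.54, 2.48 and 2.62 at the 4 ages and changed by 1.47 ± 0.12 on the log2 scale, and the lysophospholipid receptor Gpr34 had medians of 2.39, 3.57, 4.05 and 4.02 and changed by 1.06 ± 0.12. Olfml3, at medians of 2.82, 3.07, 3.12 and 2.77, was the homeostatic member that was not called (-0.15 ± 0.17 SE, adjusted p = 0.4).

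**Figure D1:**
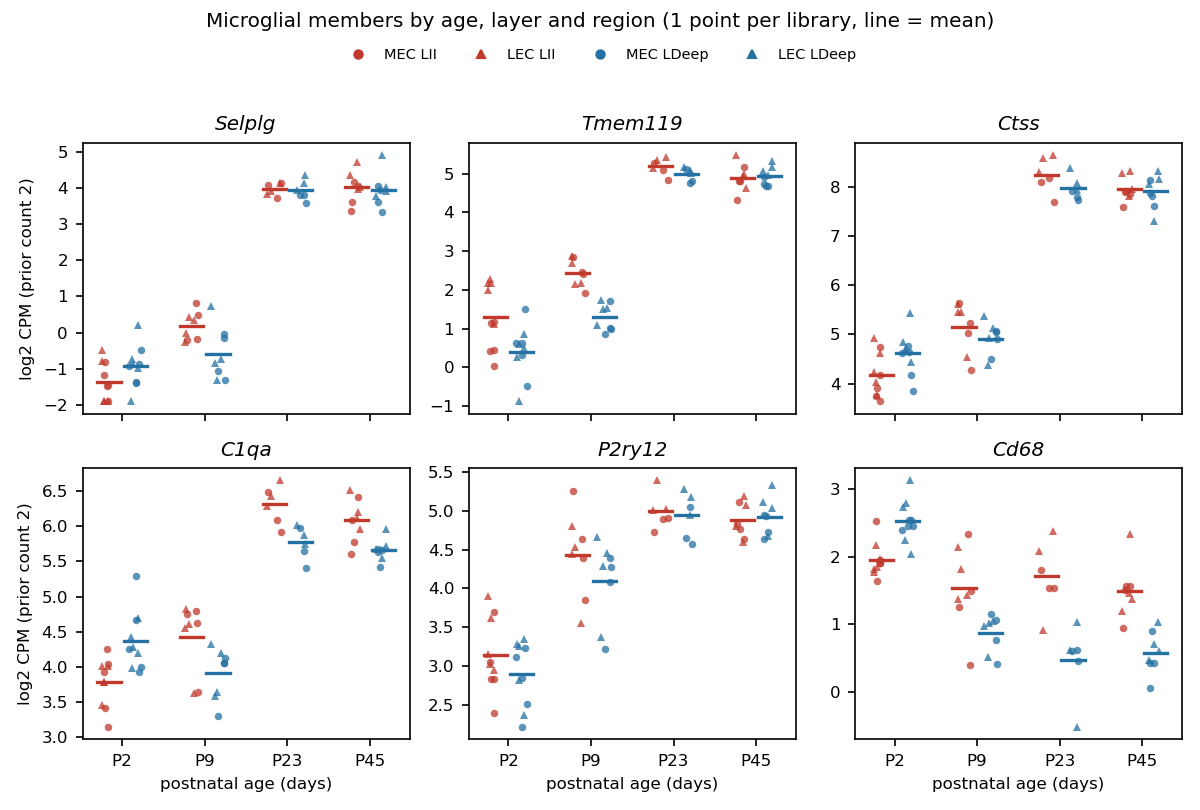
Levels of 6 members in each of the 64 libraries by postnatal age, in log2 CPM (prior count 2). Each point is 1 library, red for LII and blue for LDeep, circles for MEC and triangles for LEC, and the short lines are the means of each layer at each age. Selplg, Tmem119 and Ctss show no overlap between P9 and P23, while P23 and P45 lie at like levels.

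All 4 complement members rose. C1qa, which codes for a chain of the C1q protein that starts the classical complement pathway, had 3.15, 4.02 and 5.29 for P2 and 3.3, 4.16 and 4.82 for P9, and then 5.4, 5.99 and 6.65 for P23 and 5.42, 5.75 and 6.52 for P45. The P9 libraries lay within the range of those at P2, and every older library was above every younger one. The log2 fold change was 1.81 ± 0.09 (SE, adjusted p = 4.1e-26). The genes of the other C1q chains rose by 1.14 ± 0.08 (C1qb, with medians of 4.05, 4.35, 5.34 and 5.2 at the 4 ages) and 1.13 ± 0.08 (C1qc, with medians of 3.65, 3.4, 4.67 and 4.44). The 3 genes form a cluster on chromosome 5, where C1qa takes chr5:155261254-155264101 on the minus strand of rn6. C3, the component that all complement pathways cleave, had -1.18, 0.28 and 1.63 for P2, 0.11, 1.93 and 2.81 for P9, 1.28, 2.3 and 3.37 for P23 and 2.28, 2.91 and 3.7 for P45 and changed by 1.66 ± 0.13 (SE, adjusted p = 7.9e-17). Its libraries overlapped between neighbouring ages, and those at P45 were all above those at P2.

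Among receptors and transcription factors, Csf1r, the receptor for the survival factors Csf1 and Il34, had 4.32, 5.53 and 6.09 for P2, 4.57, 5.77 and 6.57 for P9, 6.77, 7.16 and 7.43 for P23 and 6.65, 7.01 and 7.42 for P45. The older libraries were all above the younger ones, and the log2 fold change was 1.41 ± 0.07 (SE, adjusted p = 5.6e-24). The transcription factors of the lineage moved less. Spi1 had medians of 1.1, 1.65, 1.72 and 1.69, a log2 fold change of 0.46 ± 0.11 (SE, adjusted p = 0.00023), and Irf8 had medians of 1.31, 1.49, 1.87 and 1.99, a log2 fold change of 0.44 ± 0.14 (SE, adjusted p = 0.0027). For both, every pair of ages overlapped. Trem2, a lipid receptor of phagocytic microglia, and Tyrobp, the adaptor that carries its signal, rose by 0.98 ± 0.1 (SE, adjusted p = 2.9e-12) and 0.43 ± 0.1 (SE, adjusted p = 0.00014). Trem2 had medians of 2.65, 2.9, 3.61 and 3.71 at the 4 ages, and Tyrobp of 2.87, 3.07, 3.41 and 3.32.

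The lysosomal members did not move together. Ctss had 3.64, 4.53 and 5.43 for P2, 4.28, 5.06 and 5.63 for P9, 7.69, 8.08 and 8.64 for P23 and 7.3, 7.9 and 8.32 for P45, so that every older library was above every younger one, and its log2 fold change was 3.27 ± 0.09 (SE, adjusted p = 5.5e-37). Cd68, a lysosomal membrane protein used as a marker of phagocytic cells, had 1.64, 2.21 and 3.13 for P2, 0.39, 1.11 and 2.34 for P9, -0.52, 0.97 and 2.38 for P23 and 0.06, 0.99 and 2.33 for P45, a log2 fold change of -0.72 ± 0.12 (SE, adjusted p = 3.3e-07). The highest libraries of Cd68 were at P2, and the ages overlapped. Laptm5 and Lgmn rose by 1.11 ± 0.08 and 0.38 ± 0.06.

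Plek, a substrate of protein kinase C in blood-derived cells, had -1.91, -0.9 and 0.06 for P2, -1.09, 0.93 and 1.74 for P9, 1.98, 2.31 and 3.27 for P23 and 1.92, 2.57 and 3.23 for P45 and a log2 fold change of 2.89 ± 0.15 (SE, adjusted p = 2.1e-24). P2 held 0 to 5 counts of Plek, which makes its fold imprecise, and all older libraries were above the younger ones. Of the other integrin, actin and signalling members, Inpp5d, Apbb1ip and Itgb2 rose by 1.58, 1.61 and 1.32 on the log2 scale. The remaining members (Aif1, Nckap1l, Dock8, Fcer1g, Ptprc, Cd53, Csf3r, Ly86, Tlr2 and Tlr4) were all called higher, by 0.41 to 1.24. Of the border macrophage genes, Cd163 had -1.91, -0.46 and 3.91 for P2, -1.91, 1.28 and 3.22 for P9, 1.85, 3.03 and 4.67 for P23 and 1.22, 2.78 and 4.84 for P45, and its log2 fold change was 2.53 ± 0.32 (SE, adjusted p = 4.6e-10). Most LDeep libraries at P2 and P9 held 0 or few counts of Cd163, so its fold rests on small counts. With counts summed per replicate number it was 1.7. F13a1 changed by 1.13 ± 0.24 (SE, adjusted p = 3.6e-05) and Mrc1 by 0.46 ± 0.22 (SE, adjusted p = 0.055). In all 3 genes the libraries of the 4 ages overlapped. All 35 calls stood when each of the 64 libraries was left out in turn. Without the 4 libraries that stood apart, Mrc1 was called higher at 0.65 and Cd14 lower at -0.34, which made 37 calls, and Cd163 was at 3.63. Leaving out the MEC LDeep P2 replicate 1 alone moved Cd163 to 3.15. Other cell types changed over the same ages: all 6 oligodendrocyte markers (median 5.73), all 6 neuron markers (median 0.98), all 5 red cell markers and 5 of 6 astrocyte markers were higher at the older ages, and all 5 cell cycle genes were lower. Their part in the members' changes was not tested.

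The change came in steps, and different members took different steps. Between P2 and P9, 23 members rose and 1, Cd68, fell, where 31.6% of all genes rose and 31.8% fell. The largest rises were those of Plek (2.62 ± 0.24 SE, adjusted p = 1.6e-13), C3 (1.75 ± 0.19 SE, adjusted p = 2.1e-11), Selplg (1.63 ± 0.32 SE, adjusted p = 1.8e-05), P2ry12 (1.29 ± 0.13 SE, adjusted p = 1.8e-12) and Gpr34 (1.16 ± 0.16 SE, adjusted p = 1.7e-08). Cd68 changed by -1.09 ± 0.15 (SE, adjusted p = 1.2e-08). The C1q genes C1qa and C1qc were not called in this step, at 0.1 and -0.2, nor were Trem2 and Itgb2, at 0.09 and -0.09. When 1 library at a time was left out, the call of Apbb1ip was lost in 44 of 64 cases (highest adjusted p = 0.094, without the MEC LII P9 replicate 2), that of Cd53 in 25 (0.13, without the LEC LDeep P9 replicate 1), that of Spi1 in 5 and that of C1qb in 3. Cd53 had no rise in the LEC samples alone, at -0.03.

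Between P9 and P23, 29 members rose and 1 fell, where 32.5% of all genes rose and 32.1% fell. Selplg changed by 4.51 ± 0.21 (SE, adjusted p = 1.1e-25) and Tmem119 by 3.28 ± 0.13 (SE, adjusted p = 2.6e-28). Ctss changed by 3.03 ± 0.13 (SE, adjusted p = 1e-26) and C1qa by 1.84 ± 0.13 (SE, adjusted p = 2.6e-18). Cd163 changed by 3.14 ± 0.49 (SE, adjusted p = 2.1e-07), or 4.31 without the MEC LDeep P9 replicate 3. Its LDeep libraries at P9 held few counts, and with counts summed per replicate number it was at 2.21. Itgam, the integrin subunit that pairs with Itgb2 in complement receptor 3, fell in this step, at -0.41 ± 0.15 (SE, adjusted p = 0.015), after a rise of 1.05 ± 0.13 in the step before, whereas Itgb2 rose by 1.27 ± 0.13. In the LEC samples alone Itgam was at 0.04 in this step. Aif1 and C3 were not called, at 0.08 and 0.39. The call of Mrc1 in this step (0.75 ± 0.34 SE, adjusted p = 0.047) was lost without 1 library in 27 of 64 cases, with the lowest value, 0.66, without the MEC LDeep P9 replicate 4. The calls of Tyrobp (6 cases), Fcer1g (2), Gpr34 (2) and Ptprc (1) were the others that depended on a library.

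Between P23 and P45, C3 was the only member called, at 0.77 ± 0.18 (SE, adjusted p = 0.0063), where 1.99% of all genes were higher and 1.86% lower. The libraries of C3 overlapped between the 2 ages, and the call stood in all 64 fits that left out 1 library. It was lost in 3 of 16 fits that left out 1 replicate number at 1 age, with 0.57 (adjusted p = 0.076) without P45 replicate 4. Counts summed per number and either region alone each gave 0 calls. C3 fell below 10 counts in some samples, so a filter of 10 counts in every sample did not test it. The other 38 members had log2 fold changes of -0.37 to 0.34.

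**Figure D2:**
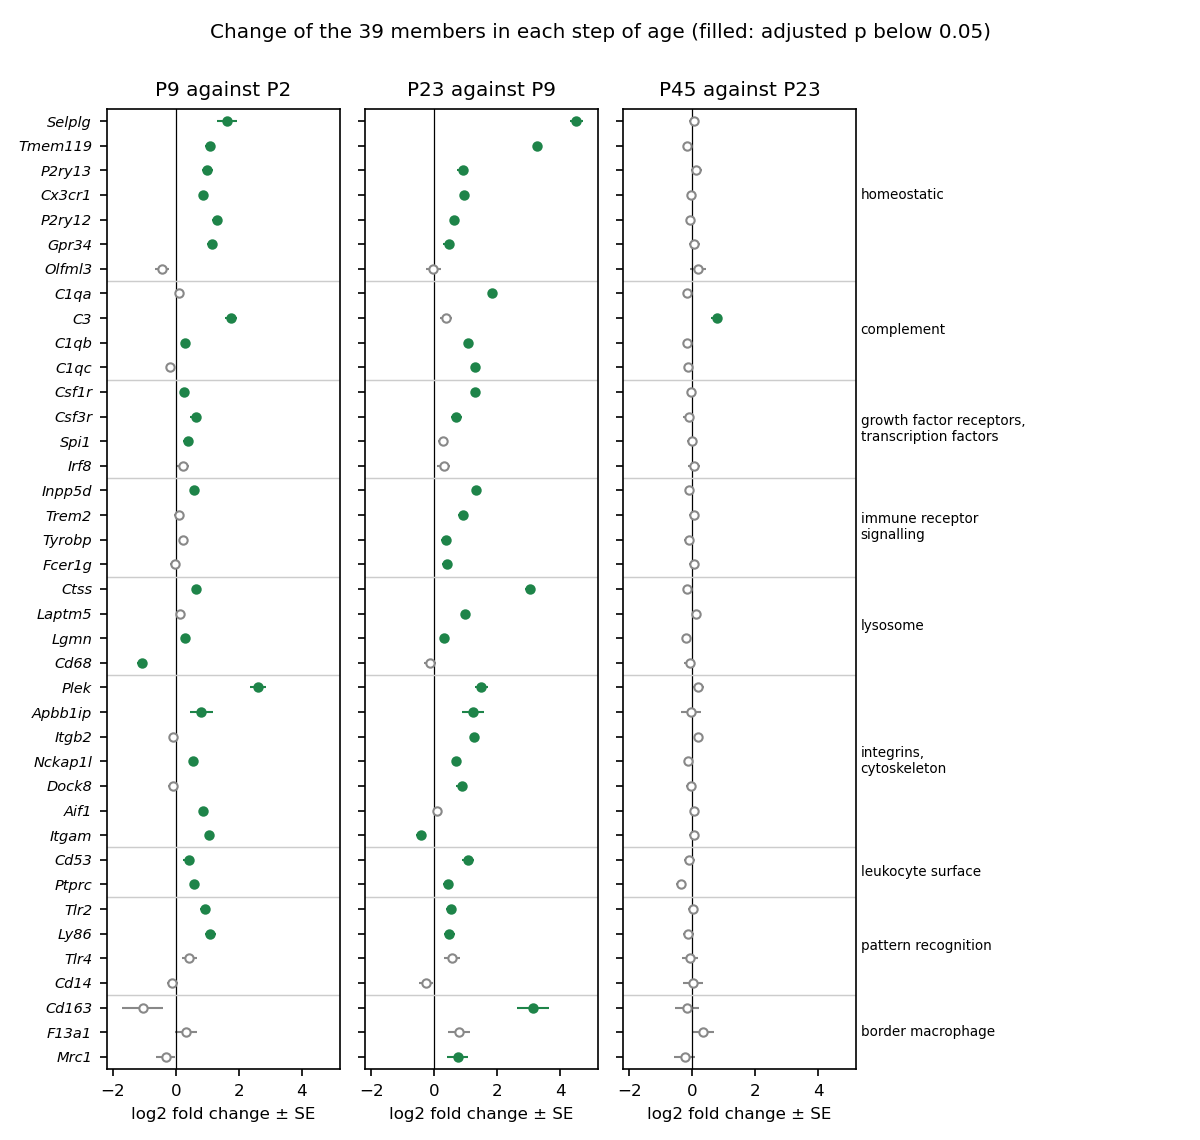
Log2 fold change of each of the 39 members in the steps from P2 to P9, P9 to P23 and P23 to P45, with its standard error as a bar and members grouped by role. Filled points passed an adjusted p of 0.05. Plek, C3 and P2ry12 have their larger step first, Selplg, Tmem119, Ctss and C1qa their larger step second, and the last step holds 1 filled point, C3.

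The study also compared the layers. Averaged over ages and regions, 18 members were higher in LII and 2 were higher in LDeep, where 23.5% of all genes were higher in LII and 30.5% in LDeep. With quantile normalization after TMM in limma voom the members split 11 to 3. The median of the 39 was 0.20, against -0.05 over all genes. The layer differences fell into a group of large ones and a group of small ones.

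The large ones were those of the border macrophage genes and 3 others. Mrc1, the mannose receptor, changed by 2.48 ± 0.23 (SE, adjusted p = 1.4e-13) between LDeep and LII, Cd163, the receptor for haptoglobin-bound haemoglobin, by 3.2 ± 0.32 (SE, adjusted p = 2.1e-12), and F13a1 by 2.56 ± 0.24 (SE, adjusted p = 3.9e-13). Cd163 was at 3.82 without the MEC LDeep P2 replicate 1 and at 4.5 without all 4 libraries that stood apart. Olfml3, a secreted protein used as a microglia marker, was higher in LII by 2.27 ± 0.17 (SE, adjusted p = 1.2e-16). Cd14 and Tlr4, which act together in sensing lipopolysaccharide, were higher in LII by 1.57 ± 0.15 (SE, adjusted p = 1.8e-13) and 1.43 ± 0.17 (SE, adjusted p = 7.1e-10). No other member exceeded 0.66, the value of Cd68. The small calls in favour of LII were Cd68, C1qc (0.6), Tmem119 (0.58), Dock8, Ptprc, Tyrobp, Csf1r, Itgam, Spi1, C1qa, C1qb and Aif1, down to 0.2. Markers of other cell types were also higher in LII, with 5 of 6 astrocyte markers (median 0.82) and all 5 red cell markers (median 0.67) called, and their part in the small calls was not tested. The calls of Aif1, C1qb and Spi1 were lost without 1 library in 7, 3 and 2 of 64 cases, and Spi1 was at -0.10 under quantile normalization.

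Inpp5d, the lipid phosphatase SHIP1, and Lgmn were the members called higher in LDeep, at -0.46 ± 0.08 (SE, adjusted p = 2.9e-06) and -0.14 ± 0.06 (SE, adjusted p = 0.032). That of Lgmn was lost in 15 of 64 cases. For Inpp5d the layer difference was not called at P2 and P9, at 0.04 and 0.06, and was called at P23 and P45, at -1.1 ± 0.18 (SE, adjusted p = 2.8e-06) and -0.83 ± 0.15 (SE, adjusted p = 2.6e-05). At P23 the 6 LDeep libraries (5.29 to 6.59 log2 CPM) were all above the 6 LII libraries (4.34 to 5.11). All 6 oligodendrocyte markers were also higher in LDeep at P23 and at P45, and their part in the values of Inpp5d was not tested.

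The border macrophage genes were examined by layer at each age. Mrc1 in LII had 0.22, 5.09 and 5.74 for P2, 3.71, 4.97 and 5.58 for P9, 4.68, 5.29 and 5.7 for P23 and 3.57, 5.18 and 5.79 for P45, and in LDeep 0.96, 1.86 and 4.88 for P2, -0.02, 1.82 and 3.27 for P9, 2.83, 3.07 and 3.34 for P23 and 2.35, 2.71 and 3.53 for P45. The layers overlapped at P2 and did not overlap at P9, P23 or P45. Without the libraries that stood apart, Mrc1 at P2 did not overlap either. It was then at 23.9 to 56.5 CPM in LII and 1.7 to 9.2 CPM in LDeep. Those libraries were picked by meningeal markers, which moved with the border genes. The lack of overlap thus follows in part from the choice and is no separate support. Its layer difference was 2.36 ± 0.41, 3.02 ± 0.47, 2.22 ± 0.5 and 2.34 ± 0.45 at the 4 ages.

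Cd163 in LII had -1.91, 3.33 and 3.91 for P2, 1.8, 2.19 and 3.22 for P9, 3.71, 4.28 and 4.67 for P23 and 2.88, 4.09 and 4.84 for P45. In LDeep it was at 0 counts in 6 of 10 libraries at P2 and 4 of 8 at P9, and reached 1.85, 2.18 and 2.35 for P23 and 1.22, 2.08 and 2.69 for P45. Cd163 in LDeep was thus at or near 0 in most younger libraries and was counted in every older one. The layer difference of Cd163 was 3.86 ± 0.62 for P2, 4.59 ± 0.8 for P9, 2.22 ± 0.59 for P23 and 2.12 ± 0.51 for P45. Leaving out 1 library moved it to 6.35 at P2 (without the MEC LDeep P2 replicate 1, which held 55 counts) and to 6.92 at P9 (without the MEC LDeep P9 replicate 3, which held 14). With so few counts in LDeep these fitted values depend on the prior count and are no bound. Without the MEC LDeep P2 replicate 1 the P2 differences of Mrc1 and F13a1 were 2.99 and 3.51. F13a1 in LII had -1.45, 2.89 and 3.16 for P2, 2.03, 2.9 and 3.51 for P9, 2.77, 3.65 and 4.22 for P23 and 2.47, 3.97 and 4.43 for P45, and in LDeep -1.91, -0.56 and 2.83 for P2, -0.77, 0.27 and 1.58 for P9, 0.31, 1.2 and 1.65 for P23 and 0.57, 1.37 and 2.41 for P45. It had layer differences of 2.55 ± 0.48, 2.64 ± 0.49, 2.61 ± 0.53 and 2.44 ± 0.45, and its layers overlapped at P2 and were apart at P9, P23 and P45. Without the libraries that stood apart, F13a1 at P2 did not overlap either. It was then at 4.5 to 9.3 CPM in LII and 0 to 1.3 CPM in LDeep, with the same limit as for Mrc1.

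The 3 border genes were then set against the 7 homeostatic members within each library, as the mean log2 CPM of the first less that of the second. In LII this difference had a mean of 1.09 ± 1.52 (SD, n = 10) for P2, 0.35 ± 0.44 (n = 8) for P9, 0.06 ± 0.38 (n = 6) for P23 and -0.02 ± 0.46 (n = 8) for P45. In LDeep it was -1.39 ± 1.07 for P2, -2.02 ± 0.57 for P9, -1.78 ± 0.17 for P23 and -1.85 ± 0.39 for P45. The border genes thus stood lower relative to the homeostatic ones in LDeep than in LII at each age, by means. Without the 4 libraries that stood apart the P2 values were 1.79 ± 0.41 (n = 8) in LII and -1.71 ± 0.41 (n = 9) in LDeep, and the P9 value in LDeep was -2.2 ± 0.28 (n = 7). The 7 homeostatic members include Olfml3, which was itself higher in LII. The mean of the 7 from P2 to P45 was 1.9, 2.99, 4.31 and 4.3 in LII and 1.65, 2.19, 3.9 and 3.91 in LDeep. A mean without Olfml3 was added after its layer difference had been seen, so like levels in that mean follow in part from the choice. Without Olfml3 the homeostatic mean from P2 to P45 was 1.54, 2.79, 4.3 and 4.25 in LII. In LDeep it was 1.46, 2.23, 4.23 and 4.24. The border mean was 2.99, 3.34, 4.37 and 4.28 in LII and 0.26, 0.17, 2.12 and 2.06 in LDeep. No test was made of these means over genes.

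Markers of other cells of the brain surface and of vessels moved with these genes. Of 16 meningeal fibroblast markers, 15 were higher in LII, with a median difference of 3.84, as were all 9 further border macrophage genes tested, with a median of 2.11, and all 13 endothelial and mural markers, with a median of 0.80. The summed level of the meningeal markers in LII was 36 to 1920 CPM at P2 and 992 to 1660 CPM at P23, and in LDeep 35.7 to 1380 CPM at P2 and 147 to 254 CPM at P23. Their part in the layer difference of the border genes was not tested. The libraries that stood apart in meningeal markers stood apart in the border genes too. The MEC LII P2 replicate 1 had 0.9 CPM of Mrc1 and the MEC LDeep P2 replicate 1 had 30.9 CPM.

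**Figure D3:**
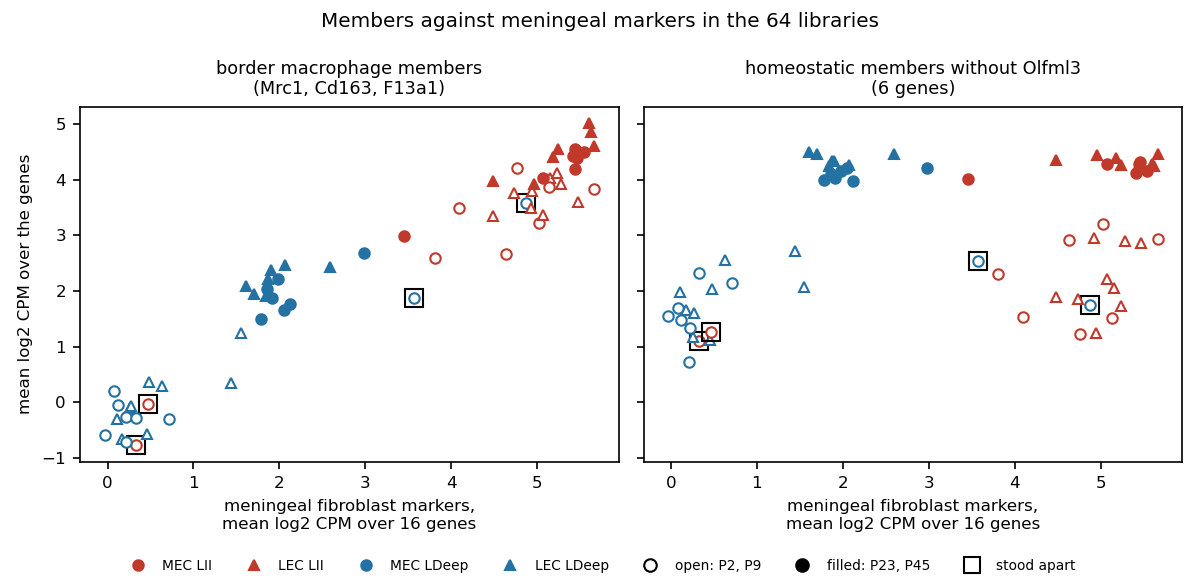
Mean log2 CPM of the 3 border macrophage members (left) and of the homeostatic members without Olfml3 (right) in each of the 64 libraries against the mean log2 CPM of 16 meningeal fibroblast markers. Red is LII and blue is LDeep, circles are MEC and triangles LEC, open symbols are P2 and P9, and boxes mark the 4 libraries that stood apart. Libraries with higher meningeal levels also had higher border member levels. The homeostatic members without Olfml3 lay between 3.97 and 4.50 in LDeep and between 4.01 and 4.46 in LII at P23 and P45. Olfml3 was left out after its layer difference had been seen. With it the homeostatic members lay between 3.63 and 4.11 in LDeep and between 3.9 and 4.56 in LII at these ages.

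Olfml3, Tlr4 and Cd14 were higher in LII at most ages. Olfml3 had layer differences of 1.38 ± 0.28, 2.33 ± 0.33, 2.61 ± 0.39 and 2.76 ± 0.34 at P2, P9, P23 and P45, Tlr4 of 1.04 ± 0.33, 1.98 ± 0.35, 1.25 ± 0.38 and 1.47 ± 0.34, and Cd14 of 0.36 ± 0.24 (not called), 1.31 ± 0.28, 2.02 ± 0.34 and 2.59 ± 0.3.

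At P2 the layers were ordered otherwise for other members. In LII, 6 members were higher (Tmem119, Mrc1, Cd163, F13a1, Tlr4 and Olfml3) and in LDeep 8 were higher, where 10.8% of all genes were higher in LII and 8.48% in LDeep. With quantile normalization after TMM in limma voom the split was 4 to 11. The members higher in LDeep were Cx3cr1 (-0.41 ± 0.13 SE, adjusted p = 0.014), C1qa (-0.62 ± 0.16 SE, adjusted p = 0.0036), Trem2 (-0.71 ± 0.2 SE, adjusted p = 0.0065), Cd68 (-0.62 ± 0.19 SE, adjusted p = 0.014), Itgb2 (-0.83 ± 0.17 SE, adjusted p = 0.00022), Laptm5, C3 (-0.98 ± 0.3 SE, adjusted p = 0.015) and Lgmn (-0.4 ± 0.1 SE, adjusted p = 0.0019). The call of Laptm5 (-0.41 ± 0.15 SE, adjusted p = 0.049) was lost without 1 library in 47 of 64 cases, with the highest adjusted p of 0.19 without the LEC LDeep P2 replicate 4, and that of Tlr4 in 1. Without the 4 libraries that stood apart 15 members were called, with Ctss (-0.52) and Csf3r (-0.83) added on the LDeep side, Laptm5 lost, and Cd163 at 6.74. Each of the 8 had libraries of one layer within the range of the other: Itgb2, for example, had 0.97, 1.65 and 2.02 in LII and 1.67, 2.17 and 3.27 in LDeep.

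At P9 the sign had turned. In LII, 16 members were higher, and none was higher in LDeep, where 16.7% of all genes were higher in LII and 16.2% in LDeep. Apart from the border genes, Olfml3, Tlr4 and Cd14, these were Tmem119 (1.25 ± 0.2), C1qc (0.87 ± 0.17), Cd68 (0.8 ± 0.23), Csf1r (0.67 ± 0.15), P2ry13, Ptprc, Itgb2, C1qa, Laptm5 and Cx3cr1, the last at 0.39 ± 0.13. Tmem119 was the member among these 10 whose 8 LII libraries were all above its 8 LDeep libraries (1.92 to 2.88 against 0.86 to 1.74). The calls of P2ry13 (10 cases), Ptprc (6), Laptm5 (3), Cx3cr1 (2) and Itgb2 (1) were lost without 1 library.

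The change of the layer difference from P2 to P9 was tested as an interaction, chosen after the values at the single ages had been seen. All 39 members had a positive estimate, with a median of 0.66 against 0.00 over all genes, and 8 were called toward LII and none toward LDeep, where 1.56% of all genes were called toward LII and 0.607% toward LDeep. The 8 were Itgb2 (1.4 ± 0.25 SE, adjusted p = 0.00058), C1qa (1.19 ± 0.24 SE, adjusted p = 0.002), Cd68 (1.42 ± 0.3 SE, adjusted p = 0.0035), C1qc (1.0 ± 0.23 SE, adjusted p = 0.0071), Cx3cr1 (0.8 ± 0.18 SE, adjusted p = 0.0073), Laptm5 (0.9 ± 0.23 SE, adjusted p = 0.018), Trem2 (1.15 ± 0.29 SE, adjusted p = 0.019) and C3 (1.36 ± 0.39 SE, adjusted p = 0.048). The call of C3 was lost without 1 library in 29 of 64 cases, with the highest adjusted p of 0.11 without the LEC LII P9 replicate 2. When 1 replicate number at 1 age was left out, C3 was lost in 13 of 16 fits, Trem2 in 4, Laptm5 in 3, and Cd68 and Cx3cr1 in 1 each, while Itgb2, C1qa and C1qc kept their calls. In Itgb2 the P9 libraries were at 1.75 to 2.73 in LII and 1.28 to 2.27 in LDeep. At P2 the lower values had been in LII, and at P9 they were in LDeep. The estimates for Mrc1, Cd163 and F13a1 were 0.66 ± 0.61, 0.73 ± 1.22 and 0.09 ± 0.79 and none was called. Markers of other cell types moved in this step too. The median was 1.32 for the meningeal fibroblast markers, with none called, and 0.61 for the astrocyte markers, with 2 of 6 called toward LII. It was 0.01 for the endothelial and mural markers and -0.31 for the neuron markers. Their part in the members' estimates was not tested. Without the 4 libraries that stood apart 10 members were called, all toward LII, with Ctss and Lgmn added. Fitted within each region, 3 were called in the LEC (Itgb2, C1qa and C1qc) and none in the MEC. The shares of all genes called in these fits are not given here, so the regions are not compared by these counts.

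**Figure D4:**
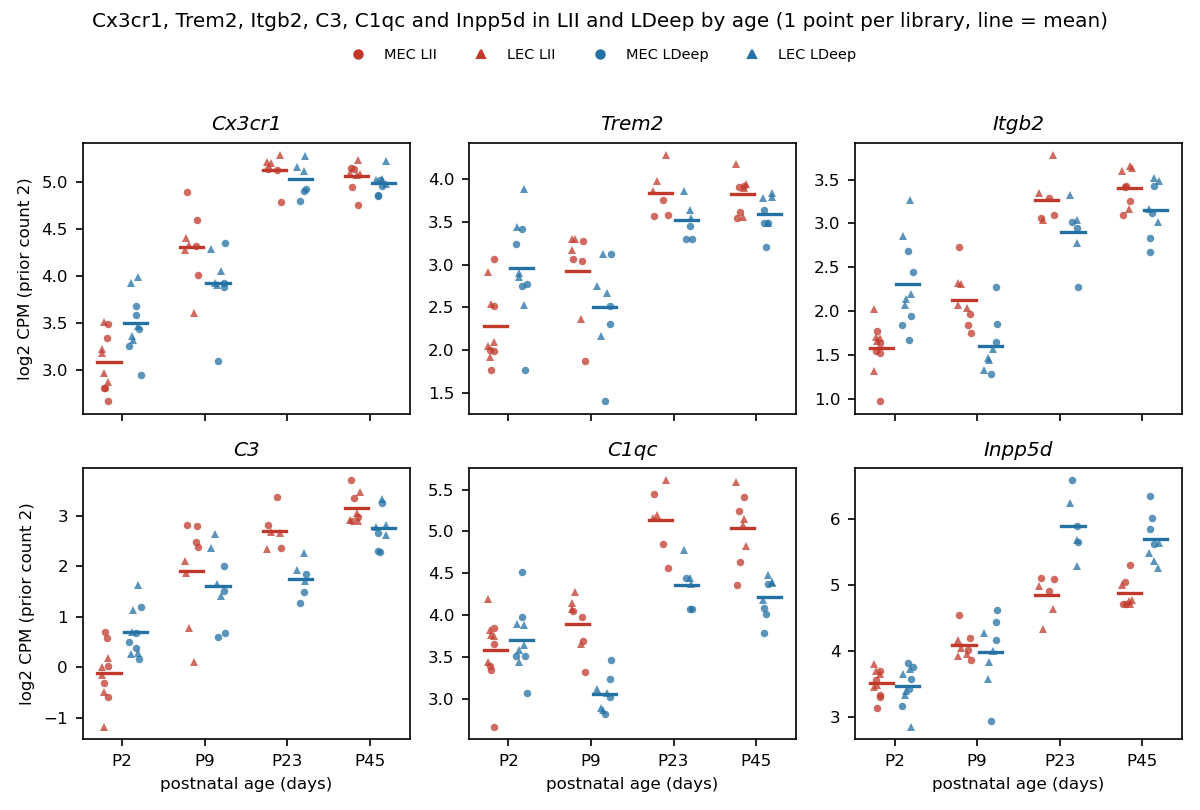
Levels of Cx3cr1, Trem2, Itgb2, C3, C1qc and Inpp5d in LII (red) and LDeep (blue) at each postnatal age, in log2 CPM (prior count 2), with 1 point per library (circles MEC, triangles LEC) and a line at the mean. In Cx3cr1, Trem2, Itgb2 and C3 the LDeep mean is the higher one at P2 and the LII mean is the higher one from P9 on, and Inpp5d separates by layer at P23 and P45, with LDeep higher.

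At P23, 10 members were higher in LII and 1, Inpp5d, in LDeep, where 14.8% of all genes were higher in LII and 11% in LDeep. Besides the border genes, Olfml3, Cd14 and Tlr4, these were Cd68 (1.39 ± 0.28), C3 (1.03 ± 0.28), C1qc (0.8 ± 0.18) and C1qa (0.54 ± 0.19). The calls of C1qa and Tlr4 were lost without 1 library in 4 cases and 1 case. At P45, 13 members were higher in LII and Inpp5d in LDeep, where 14.4% of all genes were higher in LII and 12% in LDeep. Beside the same 6, the other 7 were Cd68 (1.07 ± 0.24), C1qc (0.87 ± 0.16), Ptprc (0.83 ± 0.21), Dock8 (0.8 ± 0.22), Tyrobp (0.67 ± 0.2), C1qa and C1qb, and each of the last pair was lost in 14 of 64 cases. The homeostatic receptors Cx3cr1, P2ry12, P2ry13 and Gpr34 had layer differences of -0.04 to 0.1 at these ages, and none was called.

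**Figure D5:**
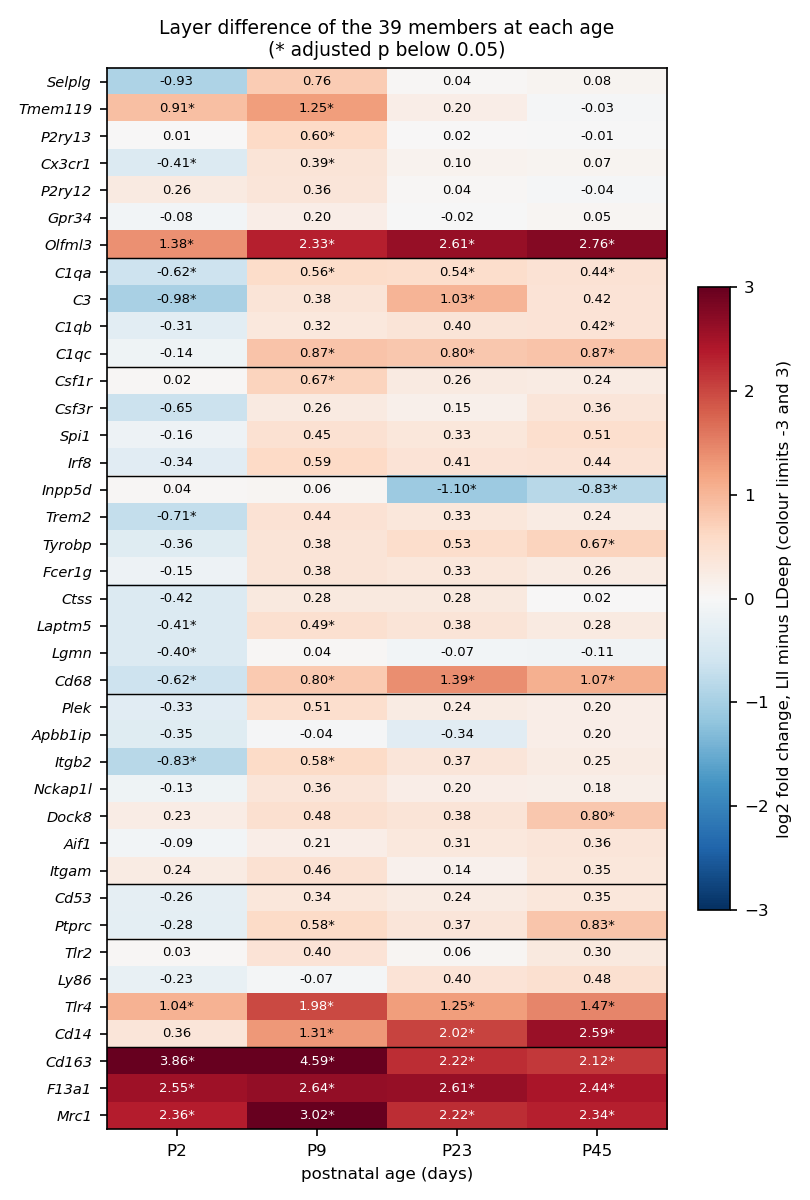
Layer difference of the 39 members at each postnatal age, as the log2 ratio of LII to LDeep, red where LII was higher and blue where LDeep was higher, with members grouped by role and an asterisk at an adjusted p below 0.05. The border members, Olfml3 and Tlr4 are red at all 4 ages, Cd68, Itgb2, C1qa and Cx3cr1 go from blue at P2 to red at P9, and Inpp5d turns blue at P23.

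The change of the layer difference from the younger to the older pair of ages was called for 7 members, 4 toward LII and 3 toward LDeep, where 4.83% of all genes were called toward LII and 3.97% toward LDeep. Toward LII these were Cd14 (1.47 ± 0.29 SE, adjusted p = 4e-04), Cd68 (1.15 ± 0.24 SE, adjusted p = 0.00059), C3 (1.02 ± 0.27 SE, adjusted p = 0.008) and C1qa (0.52 ± 0.17 SE, adjusted p = 0.048). Cd14, for example, had 0.16, 0.96 and 1.44 in LII and -1.91, 0.68 and 1.23 in LDeep at P2, with overlap, and 1.16, 1.65 and 1.93 and -1.35, -0.57 and 0.47 for P45, with none. Toward LDeep they were Cd163 (-2.06 ± 0.68 SE, adjusted p = 0.045), Inpp5d (-1.01 ± 0.16 SE, adjusted p = 8.8e-06) and Tmem119 (-1.0 ± 0.19 SE, adjusted p = 0.00016). Tmem119 had been higher in LII at P2 and P9 and was at 0.2 and -0.03 at P23 and P45.

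Of these 7, C1qa and Cd163 depended on single libraries. The call of C1qa was lost in 45 of 64 cases, with values of 0.45 to 0.53 in those cases. That of Cd163 was lost in 39 and moved to -3.30 without the MEC LDeep P2 replicate 1. Without all 4 libraries that stood apart 9 members were called, with Mrc1 (-1.13) and F13a1 (-1.0) added toward LDeep and Cd163 at -4.65.

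The 4 libraries all came from the MEC, so layer differences at P2 were also taken within each region. In the LEC, Mrc1, Cd163 and F13a1 were higher in LII at P2 by 3.25, 5.70 and 3.94 on the log2 scale, with adjusted p-values of 6.3e-09, 9e-11 and 3e-09. In the MEC they were at 1.52, 2.06 and 1.21 and no member was called. The share of all genes called in that fit is not given here, so this count is no result about the members. With the 4 libraries left out the MEC values were 3.44, 7.81 and 3.86, with adjusted p-values of 1.8e-06, 1.5e-08 and 1.5e-05. The libraries left out were picked by markers that moved with the border genes, so these values are no separate support. The P2 differences in favour of LDeep had the same sign in both regions for Itgb2 (-0.91 in the LEC and -0.70 in the MEC), Trem2 (-0.84 and -0.55), Cx3cr1 (-0.44 and -0.36) and C1qa (-0.48 and -0.73). Tmem119 at P2 was 1.84 higher in LII in the LEC and 0.02 in the MEC, or 0.70 without the 4 libraries.

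Between regions, 4 members were higher in the LEC and none in the MEC, where 6.53% of all genes were higher in the LEC and 8.87% in the MEC. They were Fcer1g, the shared gamma chain of Fc receptors (-0.34 ± 0.1 SE, adjusted p = 0.016), Tmem119 (-0.31 ± 0.1 SE, adjusted p = 0.016), Ctss (-0.28 ± 0.09 SE, adjusted p = 0.017) and Aif1 (-0.27 ± 0.08 SE, adjusted p = 0.014). Of the 39 estimates, 34 were negative, with a median of -0.17, against 0.006 over all genes. The sizes were small beside the changes with age, and at P23 Ctss, for example, was at 7.94 to 8.64 in the LEC and 7.69 to 8.17 in the MEC, which overlapped. These 4 calls stood when any 1 library was left out, but when all libraries of 1 replicate number at 1 age were left out Fcer1g was lost in 3 of 16 fits and Ctss in 1. With a fixed replicate block 11 members were called, 10 of them higher in the LEC. Without the 4 libraries that stood apart 7 members were called, all higher in the LEC.

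The layer difference depended on region for C3 alone, at 1.04 ± 0.27 (SE, adjusted p = 0.032) toward LII in the MEC, where 0.942% of all genes were called in this direction and 0.303% in the other. Its call was lost without 1 library in 9 of 64 cases, with the highest adjusted p of 0.078 (and a value of 0.94) without the MEC LII P23 replicate 1. When 1 replicate number at 1 age was left out, it was lost in 9 of 16 fits. The highest adjusted p by edgeR was then 0.16, without P23 replicate 1. At P9, C3 in LII was at 2.38 to 2.81 in the 4 MEC libraries and 0.11 to 2.11 in the 4 LEC libraries, which did not overlap, and in LDeep at 0.59 to 2.0 and 1.4 to 2.64, which did. The age difference depended on region for no member by edgeR without a replicate block, where 2.08% of all genes rose more in the MEC and 2.3% more in the LEC. At an unadjusted p below 0.05 there were 3 members (C1qb, Itgam and Csf3r). DESeq2 called 0 members, limma voom with quantile normalization called 1, and edgeR with a fixed replicate block called 2, both with the larger rise in the LEC.

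The ligands that these members answer to were counted in the same libraries. Of 15 ligands and their partners, 11 were higher at the older ages and 1, Cd200, a neuronal protein that restrains microglia, was lower at -0.69 ± 0.03. Il34 rose by 2.02 ± 0.08 while Csf1, the other Csf1r ligand, was at 0.07 ± 0.08 and not called. Cx3cl1, the ligand of Cx3cr1, rose by 1.85 ± 0.07. Mertk, a receptor for dying cells that astrocytes share, rose by 2.39 ± 0.06. Between layers Csf1 was higher in LII by 0.85 ± 0.08 and Il34 by 0.19 ± 0.08, and Cx3cl1 was higher in LDeep, at -0.30 ± 0.07. Of 21 other complement genes tested, 14 were higher at the older ages and 5 lower, and of 25 other microglia genes 15 were higher and 4 lower. Over all genes 41% were higher and 40.6% were lower, and the counts of the 3 lists are to be read against these shares.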

How the data were processed

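Total RNA from dissected tissue was made into libraries with the Illumina TruSeq Stranded Total RNA kit with Ribo-Zero Gold and sequenced as paired ends. Per the labels, the authors trimmed reads with Trimmomatic (0.33), aligned them to rn6 with STAR (2.4.0) and deposited raw counts per RefSeq gene from featureCounts of Subread (1.4.6-p1). Whether counting used strand is not given in the sources used here. From these counts, TMM scaling, the default expression filter and the quasi-likelihood test of edgeR (4.0.16, R 4.3.3) were run on 64 samples and 16 group means, with Benjamini-Hochberg adjustment over 12521 genes and a threshold of 0.05. The labels do not say that replicates are separate animals, so p-values measure the spread between these samples. Of 100 replicate pairs, 0 were identical. The depth of 3894334 to 11439143 counts limits genes with few counts.

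The members, lists and tests were chosen with earlier results of these data known. All members were accounted for. Values by group were given for the border, complement, homeostatic, Csf1r, Spi1, Irf8, Trem2, Tyrobp, Cd68 and Ctss genes, and in each contrast the called members with the 5 largest changes in each direction and every member called in an interaction were named. The layer difference at P9 against P2, the fits without 4 libraries and the homeostatic mean without Olfml3 were added after seeing the data. Alternatives were RLE scaling, other filters, DESeq2 (1.42.0), limma voom (3.58.1), replicate blocks, single regions or ages and left-out samples. The fit of the layer contrast alone was also run on simulated, independent counts with known changes and a common spread. That run does not cover the other contrasts, shared replicate numbers or libraries that go against their label.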

Additional observations from a re-analysis of the deposited data

Results flagged for a closer look

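In groups of 4 or 5 libraries, 24 of 252 tests for a library far from the others of its group passed Dixon's 95% limit, in 15 libraries, where chance flags about 1 in 20 groups. All values are log2 CPM. Several were in the P9 replicates numbered 4. In the MEC LII P9 replicate 4, C1qa was at 3.65, Irf8 at 0.86 and Trem2 at 1.87, all below the others of the group. In the MEC LDeep P9 replicate 4, C1qa was at 3.30, P2ry13 at 0.59 and Csf1r at 4.57, again below. In the LEC LII P9 replicate 4, Cx3cr1 was at 3.61, Trem2 at 2.36 and Ctss at 4.55, and in the LEC LDeep P9 replicate 4 Cd68 was at 0.52.

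Libraries that stood apart in meningeal markers were among the rest. Cd163 was at 3.02 and Olfml3 at 4.49 in the MEC LDeep P2 replicate 1, above the others, Cd163 at 0.75 in the MEC LDeep P9 replicate 3, above the others, and Csf1r at 4.32 in the MEC LII P2 replicate 1, below them. In the MEC LII P45 replicate 4, Cd163 was at 2.88, Olfml3 at 3.20 and Cd68 at 0.95, all below the others. The remaining values were Mrc1 at 2.35 in the LEC LDeep P45 replicate 3, F13a1 at 1.83 in the MEC LDeep P45 replicate 2 and at 3.18 in the LEC LII P45 replicate 4, Cx3cr1 at 5.24 in the LEC LII P45 replicate 3, P2ry13 at 2.58 in the MEC LII P45 replicate 2, Tmem119 at 1.12 in the LEC LII P2 replicate 3 and Olfml3 at 1.20 in the MEC LDeep P45 replicate 4.

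The layer difference changed by an interaction test in edgeR in 16 cases. Between the younger and older ages it changed by 0.52 for C1qa, 1.15 for Cd68, 1.02 for C3 and 1.47 for Cd14 toward LII, and by -1.0 for Tmem119, -2.06 for Cd163 and -1.01 for Inpp5d. Between P2 and P9 it changed by 0.80 for Cx3cr1, 1.19 for C1qa, 1.00 for C1qc, 1.15 for Trem2, 1.42 for Cd68, 1.4 for Itgb2, 0.90 for Laptm5 and 1.36 for C3. Between regions it differed by 1.04 for C3.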

How the results depend on the processing

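Of 18742 fold changes under alternatives, 17819 kept their direction and side of the threshold, 804 lost and 114 gained a call, and 5 reversed: Cd53 from P2 to P9 (-0.03) and Itgam from P9 to P23 (0.04) in the LEC alone, and Spi1 (-0.10), Csf3r (-0.33) and Ly86 (-0.31) between layers with quantile normalization. The cause of these reversals was not tested. Requiring 10 counts in every sample tested fewer members. Selplg, Tmem119, Plek, C3, Cd14, Cd68 and the border genes, among others, fell below it in some sample and were not tested. The filter left 16 calls with age, 10 from P2 to P9, 16 from P9 to P23 and 0 from P23 to P45. Between layers it left 12, with 6, 9, 4 and 7 at the 4 ages. It left 1 call for layer by age, 2 between regions and 0 for layer by region. Members not tested account for part of the lower counts, and the 0 counts say nothing of C3. A log2 fold change above 0.5 left 9 between layers and 0 between regions. The MEC alone gave 0 from P23 to P45, 0, 5, 5 and 7 between layers at the 4 ages, 2 for layer by age and 0 for the layer difference from P2 to P9, and without the 4 libraries 0 from P23 to P45, 8 between layers at P2 and 1 for the layer difference from P2 to P9. The LEC alone gave 0 from P23 to P45, 4 for layer by age and 3 for the layer difference from P2 to P9. Samples of 1 age alone gave 8 at P2 and 18 at P23. For the fits within a region or an age the shares of all genes called are not given here. Quantile normalization gave 1 for age by region and 5 for the layer difference from P2 to P9, and all regions without the 4 libraries gave 7 between regions. Against all other members, the border difference was 0.59 and 0.50 in LII and -1.28 and -1.29 in LDeep at P23 and P45, and without Olfml3 it was -2.12 in LDeep at P23.

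With replicates left out, calls ranged from 35 to 37 with age, 19 to 26 from P2 to P9, 24 to 33 from P9 to P23, 0 to 1 from P23 to P45, 16 to 24 between layers, 9 to 16, 11 to 22, 8 to 13 and 10 to 15 between layers at the 4 ages, 5 to 9 for layer by age, 4 to 10 for the layer difference from P2 to P9, 2 to 11 between regions, 0 to 1 for layer by region and 0 to 2 for age by region.

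When 1 replicate number at 1 age was left out, calls that stood without any 1 library were lost in 1 to 4 of 16 fits for Apbb1ip, Itgam and Ly86 from P9 to P23, Csf1r from P2 to P9, C3 from P23 to P45, C1qa between layers, C3, Cd68, Cx3cr1 and Trem2 between layers at P2, C1qa and Cd68 at P9, C3 and Cd163 at P23, Dock8, Ptprc and Tyrobp at P45, Trem2, Laptm5, Cd68 and Cx3cr1 for the layer difference from P2 to P9, and Ctss and Fcer1g between regions.

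The labels do not say whether a replicate number marks a shared animal. For its miRNA samples, the study gave both layers of an animal the same number within an age. Deviations of same-numbered samples had a mean correlation of 0.134 (-0.259 to 0.554, over 0.1 in 55 of 96 pairs), against -0.043 (over 0.1 in 59 of 300 pairs) for samples with different numbers, and 37 of 64 libraries correlated best with their own number, which is a hint of pairing from the data and not from the design. A replicate block gave 11 calls between regions, 2 for age by region and 0 from P23 to P45 (counts summed per number), and moved no other count by over 1.5 times. With counts summed per number, edgeR lost the calls of Itgam, Tyrobp, Fcer1g, Gpr34, Ptprc, Ly86 and Mrc1 from P9 to P23. From P2 to P9 those of Csf1r, C1qb, Spi1, Cd53 and Apbb1ip were lost, while Cd163 (-0.78) and Tlr4 (0.66) were called.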

Other observations

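Genes of activated and early postnatal microglia, which are not among the members, were counted in the same libraries. Of 9 tested, 4 were lower at the older ages by edgeR (Spp1 at -1.66, Lpl at -1.24, Fabp5 at -1.94 and Ccl3 at -1.59 on the log2 scale) and 2 were higher (Cd9 at 1.10 and Cd63 at 0.13), where 40.6% of all genes were lower and 41% higher, so the count of lower genes is near that of all genes. At P2, 4 of the 9 were lower in LII than in LDeep and none was higher, where 8.48% of all genes were higher in LDeep. The list was chosen with earlier results known, and Fabp5 and Spp1 are also made by other cells of the brain.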
